A study of Homo sapiens with 9 samples.

Results

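This section pools the 6 arrays of Flip-In-293 cells that carried a gene-targeting hairpin and sets them as 1 group against the 3 arrays of cells that carried a non-silencing (NS) hairpin, out of 9 arrays in all. Members of the pooled group were taken by sample title: 3 arrays titled as CPSF3 knockdown and 3 titled as RBFOX2 (fox2) knockdown, here together the targeted arrays. Flip-In-293 cells derive from HEK293, a human embryonic kidney line, and carry a site for inserting transgenes. All 9 cultures were infected with lentivirus, so infection, hairpin expression and 10 days of culture in serum-containing medium were common to targeted and control cells. The labels name 1 hairpin per target, so an effect of the target and one of the hairpin cannot be told apart. Total RNA was read on Affymetrix Human Exon 1.0 ST arrays. The comparison asks which genes differed between the pooled targeted arrays and the non-silencing control, and how they stood against each control array alone. A call does not require a difference in each hairpin group.

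CPSF3 cuts the nascent transcript ahead of poly(A) addition, and RBFOX2 is a splicing regulator that binds introns next to alternative exons. A short hairpin is trimmed by DICER1 and loaded on Argonaute, as a microRNA is. Under low oxygen the HIF transcription factors escape prolyl hydroxylation and raise genes of glycolysis, collagen maturation and secreted factors. They bind DNA at a short core, of which only the form ACGTG was searched here. Immediate early genes such as FOS and JUN respond within minutes to serum and stress, ATF4 and ATF3 act in the integrated stress response, and GADD45 genes in growth arrest.

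Some genes of the hypoxia list fell against each control array. The 250 bases before the start of 3 of them (BHLHE40, P4HA1 and LOX) and of PGK1, a glycolytic gene, are given. They show where the form ACGTG of the HIF core stands. They are RefSeq sequences of GRCh38.p14, with ACGTG on either strand (read as ACGTG or CACGT) in capitals.
PGK1, chrX:78103998-78104247, + strand: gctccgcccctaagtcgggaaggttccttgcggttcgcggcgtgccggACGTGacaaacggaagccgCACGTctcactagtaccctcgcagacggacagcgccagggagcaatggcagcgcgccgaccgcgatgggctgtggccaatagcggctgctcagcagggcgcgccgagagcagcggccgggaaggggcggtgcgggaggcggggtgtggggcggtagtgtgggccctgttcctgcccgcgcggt
BHLHE40, chr3:4979187-4979436, + strand: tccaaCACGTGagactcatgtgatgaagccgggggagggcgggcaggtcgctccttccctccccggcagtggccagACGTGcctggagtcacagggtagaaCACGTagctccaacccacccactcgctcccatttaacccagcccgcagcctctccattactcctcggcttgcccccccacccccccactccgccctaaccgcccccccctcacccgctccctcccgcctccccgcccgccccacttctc
P4HA1, chr10:73096867-73097116, - strand: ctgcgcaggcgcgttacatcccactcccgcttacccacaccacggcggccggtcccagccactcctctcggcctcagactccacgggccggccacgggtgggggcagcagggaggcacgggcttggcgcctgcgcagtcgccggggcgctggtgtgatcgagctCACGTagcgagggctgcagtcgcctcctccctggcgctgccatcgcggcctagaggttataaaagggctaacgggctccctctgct
LOX, chr5:122078260-122078509, - strand: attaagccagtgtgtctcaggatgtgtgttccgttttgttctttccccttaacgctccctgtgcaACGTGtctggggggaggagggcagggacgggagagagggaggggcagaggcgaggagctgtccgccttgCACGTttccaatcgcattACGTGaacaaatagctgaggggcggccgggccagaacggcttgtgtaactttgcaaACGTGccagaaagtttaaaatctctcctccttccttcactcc
PGK1 held 2 matches, BHLHE40 4, of which 2 form the palindrome CACGTG, P4HA1 1 and LOX 4. The upstream window was given for 8 of the 11 hypoxia list genes that fell, and 6 of these 8 held a match, against 7 of 18 list genes that did not pass the test. Of the 8, P4HA2 and PDK1 held none. Over all 27305 RefSeq promoters the share with a match was 18.7%, and over the 14419 tested genes with a promoter it was 21%. A match is a description of letters and not of a bound site.

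The 9 arrays had median signals of about 7.0 (log2). The titles have biological replicates but the series text has technical ones. Every p-value is thus against array-to-array spread that could be purely technical. Control replicate 3 stood apart from its group. Over gene levels it correlated with RBFOX2 hairpin replicate 2 at 0.988 and with its own group's arrays at 0.978 and 0.972. RBFOX2 hairpin replicate 1 was also nearest to control replicate 3 (0.982). Differences from control replicate 3 alone are therefore given for the lists and for many of the genes below. The labelled cell type was checked against 7 HEK293 markers, among them VIM, NEFL, KRT8 and PAX2. Their median level was 10.0 to 10.2 on control arrays and 9.59 to 10.1 on targeted arrays, and NEFL and KRT8 fell. Markers of fibroblasts, blood cells, endothelium and epithelium held no called gene among 10, 7, 8 and 7 measured, with median levels of 6.82 to 7.94 on control and 6.90 to 7.96 on targeted arrays.

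The targeted genes themselves differed little between the pooled group and control. CPSF3 had 9.33, 9.17 and 9.76 on the control arrays, 9.53, 9.26 and 9.04 on the arrays labelled CPSF3 knockdown, and 9.73, 9.44 and 9.77 on the RBFOX2 hairpin arrays. The groups overlap, with a pooled difference of 0.04 ± 0.17 (SE; limma adjusted p = 0.931; exact permutation p = 0.869, 2-sided, 84 splits). That difference mixes both hairpins. With the 3 groups apart in limma, the arrays labelled CPSF3 knockdown differed from control by -0.14 ± 0.17 (adjusted p = 0.69). From the RBFOX2 hairpin arrays they differed by -0.37 ± 0.17 (limma adjusted p = 0.466). The label of the CPSF3 arrays is thus not borne out by this transcript, and "CPSF3 hairpin" below means the arrays labelled so. RBFOX2 had 9.26, 9.13 and 9.17 on control arrays, 9.17, 8.91 and 8.85 on CPSF3 hairpin arrays, and 8.63, 8.63 and 8.57 on RBFOX2 hairpin arrays. It was lowest on its own hairpin's arrays, with no overlap between those and any other array. With the 3 groups apart in limma, those arrays differed from control by -0.58 ± 0.12 (adjusted p = 0.148). The pooled difference was -0.39 ± 0.13 (limma adjusted p = 0.126; exact permutation p = 0.0476, smallest possible 0.0119), and 24 of 26 probe sets were lower.

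In the pooled comparison 319 of 18589 genes (1.72%) passed the test, which was limma with Benjamini-Hochberg adjusted p under 0.05; such genes are called below. Of them 193 (1.04%) rose and 126 (0.678%) fell in the targeted arrays. A gene's level is the median of its probe sets on the log2 scale, so a change of 1 is 2-fold. At least 2-fold were 41 of the rises and 25 of the falls. All 6 targeted arrays lay above all 3 control arrays at 788 genes (4.24%) and below them at 681 (3.66%). The count depended on single arrays. It was 0 without control replicate 1, 0 without control replicate 2 and 0 without CPSF3 hairpin replicate 3 (2387, 2367 and 3107 genes at an unadjusted limma p under 0.05, against 3665 with all arrays). It was 15 (5 higher, 10 lower), 3 and 20 (4 higher, 16 lower) without CPSF3 hairpin replicates 1 and 2 and RBFOX2 hairpin replicate 3, and 529 and 813 without RBFOX2 hairpin replicates 1 and 2. Without control replicate 3 it was 1854, of which 1440 (7.75% of all genes) were higher and 414 (2.23%) lower, 315 of the 319 among them. Counts of list members without control replicate 3, below, stand against these shares. All 319 genes kept their sign in each of these fits. The pooled spread also holds the difference between the hairpins: with 3 groups in the fit the count was 927.

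**Figure D1:**
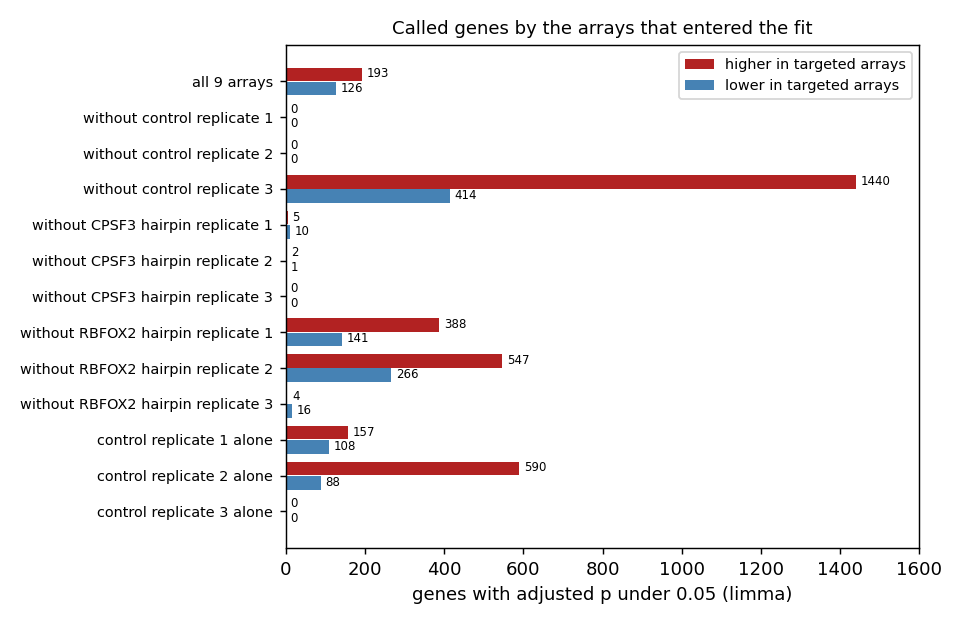
Number of genes past an adjusted p of 0.05 (limma) that were higher or lower in the targeted arrays, by the arrays that entered the fit. All 9 arrays gave 193 and 126, leaving out control replicate 3 gave 1440 and 414, and 3 of the fits that left out 1 array gave 0.

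Part of the hypoxia-responsive genes fell. They were lower against each control array, but all 319 called genes kept their sign against each, which the choice by the test favours. Of 33 measured genes of the list 11 fell and 0 rose, with a median change of -0.24, against 0.678% lower and a median of 0.01 over all genes. STC1, a secreted glycoprotein hormone, had 9.85, 9.71 and 9.64 on control arrays, 6.93, 7.23 and 7.29 with the CPSF3 hairpin, and 7.87, 8.82 and 8.23 with the RBFOX2 hairpin. All 6 targeted arrays lay below all controls. The change was -2.0 ± 0.33, leaving 25% of the control level (limma adjusted p = 0.025), and all 14 probe sets were lower. HILPDA, a lipid droplet protein that blocks lipolysis, had 10.53, 10.54 and 10.08 on control arrays and between 8.52 and 9.50 on targeted arrays (-1.42 ± 0.21). Its groups did not overlap either.

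The other members that fell serve several sides of the response. BHLHE40, a transcriptional repressor, had 10.27, 9.92 and 9.55 on control arrays and 8.29 to 9.31 on targeted arrays (-1.28 ± 0.21). P4HA1 and P4HA2 encode the catalytic subunits of collagen prolyl hydroxylase, and they changed by -1.25 ± 0.21 and -0.63 ± 0.12. LOX, which cross-links collagen, had 11.01, 10.43 and 10.43 on control arrays and 9.22 to 10.10 on targeted arrays (-1.0 ± 0.19). Of the genes of glucose metabolism, the enolase ENO2 fell by 1.10 on the log2 scale, the aldolase ALDOC fell by 0.85 and the pyruvate dehydrogenase kinase PDK1 fell by 0.71. PDK1 had 10.52, 10.25 and 10.14 on control arrays and 9.49 to 9.65 on targeted arrays, so that its targeted arrays were alike in both hairpin groups. NDRG1 and the mitophagy receptor BNIP3 were at -0.69 ± 0.15 and -0.50 ± 0.10. Adjusted p for these 11 genes lay between 0.025 and 0.0448.

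Against control replicate 3 alone, the 11 genes differed by -1.91 to -0.46 (median -0.81). In each of them all 6 targeted arrays lay below that array, as they did at 116 of all 126 called falls. Against control replicates 1 and 2 the medians were -1.28 and -0.99. Over the whole list, all 6 targeted arrays lay below control replicate 3 at 18 of 33 genes, where 17.4% of all genes did, and the list's median was -0.30, -0.24 and -0.23 against control replicates 1, 2 and 3. Leaving out control replicate 3 gave 15 falls and 1 rise in the list. Without control replicate 1 or 2, or CPSF3 hairpin replicate 3, no gene was called.

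None of 8 measured regulators of the pathway passed the test, and their differences ran from -0.06 to 0.36. HIF1A, the oxygen-regulated subunit, had 10.36, 10.39 and 10.77 on control arrays, 11.06, 11.13 and 11.35 with the CPSF3 hairpin and 10.05, 10.41 and 10.80 with the RBFOX2 hairpin. All CPSF3 hairpin arrays lay above all controls and the RBFOX2 hairpin arrays overlapped them; the difference between the hairpins was 0.76 ± 0.18 (limma adjusted p = 0.188). Several classical targets gave no call: VEGFA was at -0.37 ± 0.10 (adjusted p = 0.0762), and the glucose transporter SLC2A1 and the carbonic anhydrase CA9 were at 0.03 ± 0.14 and 0.03 ± 0.13.

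Among 15 glycolysis genes 1 fell and 0 rose (median -0.14). PGK1, the phosphoglycerate kinase, had 12.49, 12.45 and 12.31 on control arrays and 11.56 to 11.93 on targeted arrays, without overlap. The change was -0.71 ± 0.11 (adjusted p = 0.025), with all 16 probe sets lower and -0.60 against control replicate 3 alone. PKM and TPI1 were at -0.30 ± 0.10 and -0.40 ± 0.19 and LDHA at -0.14 ± 0.10, none of them called.

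TXNIP, the arrestin-domain protein that binds thioredoxin and follows glucose supply, had 11.86, 11.75 and 11.24 on control arrays, 9.31, 9.39 and 9.32 with the CPSF3 hairpin and 10.07, 10.97 and 9.70 with the RBFOX2 hairpin. The groups did not overlap, and RBFOX2 hairpin replicate 2 and control replicate 3 came nearest to each other. TXNIP changed by -1.82 ± 0.31 (adjusted p = 0.0278), by -1.44 against control replicate 3 alone, and all 16 probe sets were lower. It was the only called gene of 9 in the list of arrestins and their regulators. Its paralogue ARRDC4 was at -1.02 ± 0.36 (adjusted p = 0.132), with all 22 probe sets lower.

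**Figure D2:**
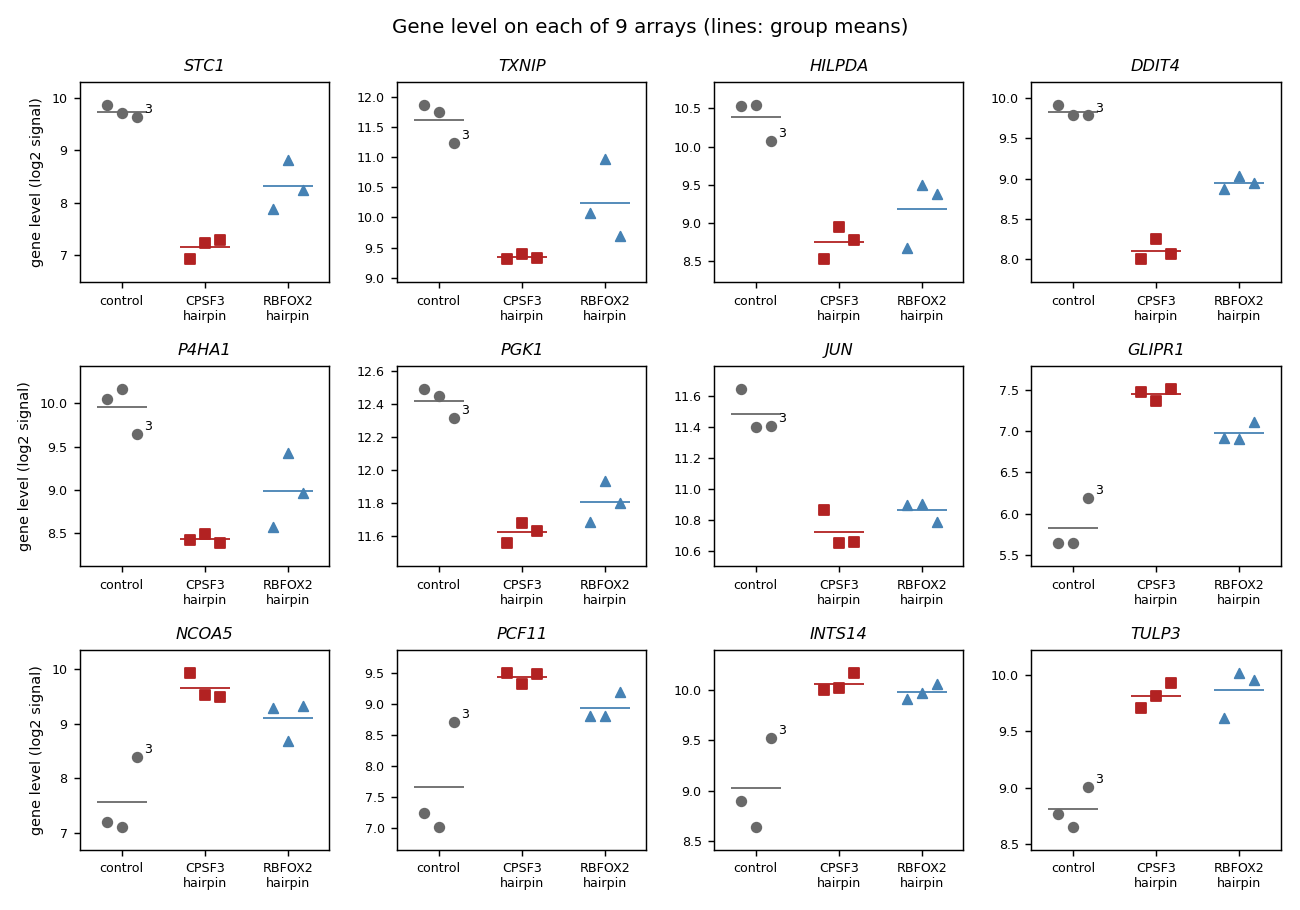
Gene level (log2 signal) of 12 genes on each of the 9 arrays, with control (circles), CPSF3 hairpin (squares) and RBFOX2 hairpin (triangles) arrays and lines at group means; "3" marks control replicate 3. STC1, DDIT4 and JUN have control replicate 3 beside the other controls, whereas for NCOA5 and PCF11 it lies between the other controls and the targeted arrays.

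Several immediate early genes fell. Of 31 measured genes 7 fell and 0 rose (median -0.18), where 0.678% of all genes fell. Called or not, 21 members were lower and 10 higher. Their changes ran from -0.85 to 0.86, and the largest increase was not called. JUN, a subunit of the AP-1 transcription factor, had 11.64, 11.40 and 11.41 on control arrays and 10.65 to 10.90 on targeted arrays, a change of -0.69 ± 0.11 (adjusted p = 0.025). No targeted array reached a control array, and the difference from control replicate 3 alone was -0.61. Its partner genes JUND, FOS and JUNB changed by -0.85 ± 0.17, -0.83 ± 0.17 and -0.63 ± 0.13, and by -0.42, -0.29 and -0.33 against control replicate 3 alone. KLF10, a TGF-beta-induced repressor, changed by -0.80 ± 0.14, IER3 by -0.63 ± 0.12 and the nuclear receptor NR4A2 by -0.53 ± 0.12. Control replicate 3 was nearer to the targeted arrays for FOS: it had 8.15 where the other controls had 9.06 and 8.84, and CPSF3 hairpin replicate 1 was level with it at 8.16. All 6 targeted arrays lay below control replicate 3 at 10 of 31 genes of the list, where 17.4% of all genes did. Without that array the list held 11 falls and 1 rise. FOS was -0.25 and not called with the upper-quartile filter.

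Stress and growth arrest genes split by how they stood to control replicate 3. The list for ATF4 and the unfolded protein response (37 measured) had 4 falls and 0 rises, with a median of -0.18. DDIT4, an inhibitor of mTORC1 that hypoxia also induces, had 9.91, 9.79 and 9.79 on control arrays, 8.0, 8.24 and 8.06 with the CPSF3 hairpin and 8.87, 9.04 and 8.94 with the RBFOX2 hairpin. Its 3 control arrays were close together and far from every targeted array, and it changed by -1.30 ± 0.23 (adjusted p = 0.0278). ATF3, a stress-induced repressor, had 10.03 and 10.19 on control replicates 1 and 2 but 8.53 on control replicate 3, inside the targeted range of 7.94 to 8.70. Its change of -1.31 ± 0.29 (adjusted p = 0.0467) was -0.26 against control replicate 3 alone. PPP1R15A, which restores translation by directing a phosphatase to eIF2, and DDIT3 changed by -1.01 ± 0.19 and -0.76 ± 0.16, and by -0.42 and -0.40 against that array. The list held 7 falls without control replicate 3.

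Of 31 p53 target and growth arrest genes 4 fell and 0 rose (median -0.13). GADD45A, which binds PCNA and stress kinases, had 10.51, 10.31 and 9.58 on control arrays and 8.58 to 9.30 on targeted arrays (-1.28 ± 0.20). GADD45B changed by -1.04 ± 0.19. TP53INP1, a p53-induced autophagy gene, and DDB2, the damage sensor of nucleotide excision repair, changed by -0.70 ± 0.11 and -0.60 ± 0.11. These 2 were at -0.66 and -0.74 against control replicate 3 alone, where GADD45B was at -0.38. The list held 10 falls without control replicate 3.

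Genes of the ribosome and of small nucleolar RNAs were low mainly against control replicates 1 and 2. Among the 68 measured ribosomal proteins of the cytosol there were 3 falls and 1 rise, with a median of -0.27. The list's median was -0.40 and -0.35 against control replicates 1 and 2 and -0.05 against control replicate 3. All 6 targeted arrays lay below control replicates 1 and 2 at 48 genes each (all genes: 17.5% and 16.4%), and below control replicate 3 at 7. RPL34 had 9.00, 9.12 and 7.87 on control arrays and 7.41 to 8.05 on targeted arrays, so that control replicate 3 sat among the targeted arrays (-1.01 ± 0.23; -0.22 against control replicate 3). It was -0.54 and not called (adjusted p = 0.0598) when probe sets under the median signal were left out. RPL37A and RPS15A changed by -0.83 ± 0.16 and -0.78 ± 0.18, and by -0.44 and -0.20 against control replicate 3. RPL37A lost its call with the mean as gene level (-0.56) and RPS15A with the upper-quartile filter (-0.44). RPL27A was the rise, at 0.86 ± 0.19, but only 9 of its 20 probe sets were higher and it was 0.03 with the upper-quartile filter. There were 20 falls and 1 rise in the list without control replicate 3. Ribosomal proteins have many pseudogenes, whose transcripts share sequence with the parent genes, so single members are uncertain.

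Of 16 small nucleolar RNA host genes 1 fell, with the lowest median of the 32 lists, -0.38. SNHG1 had 11.86, 11.99 and 10.62 on control arrays, 9.64, 9.74 and 9.73 with the CPSF3 hairpin and 9.55, 10.93 and 10.23 with the RBFOX2 hairpin (-1.52 ± 0.32; -0.65 against control replicate 3). RBFOX2 hairpin replicate 2 exceeded control replicate 3. The list's median was -0.55, -0.50 and -0.07 against control replicates 1, 2 and 3, and it held 8 falls without control replicate 3. Many of these hosts are spliced, poorly translated RNAs whose levels depend on decay during translation, which was not tested here. The factors of nonsense-mediated decay gave no call among 14, and SMG8, which regulates the SMG1 kinase, was nearest at 0.82 ± 0.22 (adjusted p = 0.0689).

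**Figure D3:**
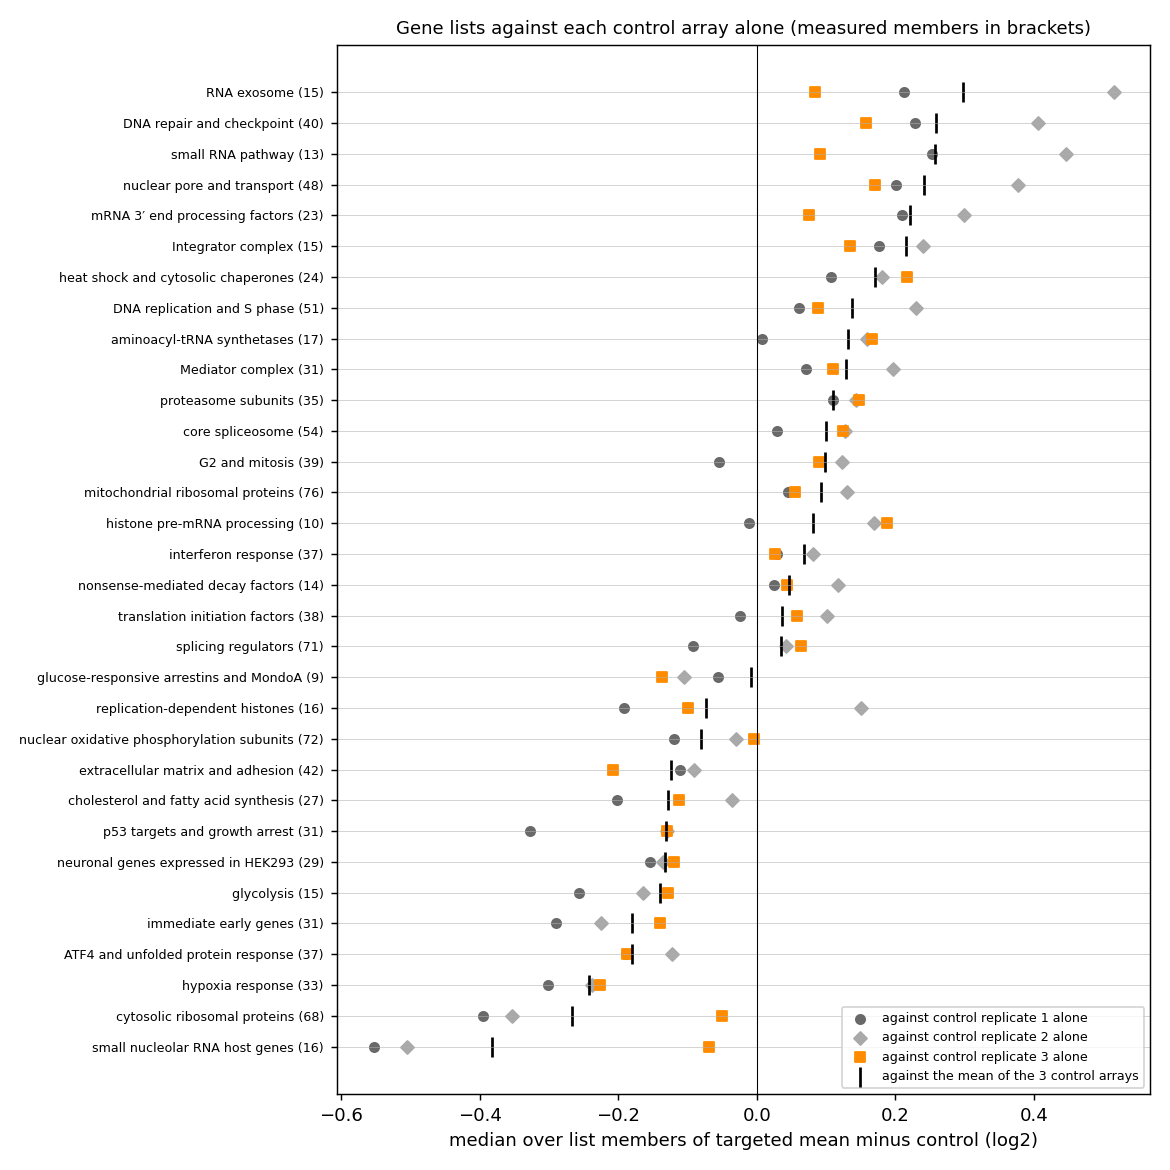
Median over the measured members of each of 32 gene lists of the difference (log2) between the mean of the 6 targeted arrays and control replicate 1, 2 or 3 alone; vertical ticks give the difference from the mean of the 3. The hypoxia list lies at -0.30, -0.24 and -0.23, while small nucleolar RNA host genes lie at -0.55, -0.50 and -0.07.

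The largest rises were in genes of varied function, and they were smaller against control replicate 3 than against the others. NCOA5, a nuclear receptor coregulator, rose most: 7.19, 7.11 and 8.40 on control arrays, 9.93, 9.52 and 9.49 with the CPSF3 hairpin and 9.29, 8.69 and 9.33 with the RBFOX2 hairpin. The change was 1.81 ± 0.28 (adjusted p = 0.025) and 0.98 against control replicate 3 alone. TRMT10C, a subunit of mitochondrial RNase P, and YAE1, which helps load an iron-sulfur cluster on a ribosome recycling factor, rose by 1.47 ± 0.26 and 1.43 ± 0.28, and were 0.67 and 0.80 above control replicate 3. GLIPR1, a secreted protein of the CAP family, had 5.65, 5.64 and 6.19 on control arrays and 6.90 to 7.51 on targeted arrays (1.39 ± 0.17), and its difference from control replicate 3 alone was 1.02. GLIPR1 was 0.97 when probe sets under the median signal were left out, and too few were left for the upper-quartile filter. PPP1R10, the nuclear phosphatase-targeting subunit PNUTS that acts in transcription termination, rose by 1.22 ± 0.20 with all 27 probe sets higher, and was 0.58 above control replicate 3. Of called genes whose groups did not overlap, the 12 largest rises also held ZNF480, PIGM, B4GALT6, SLC25A32, CHAMP1, WBP4 and PCF11, at 1.12 to 1.52. Several depended on the probe sets. When those under the median signal were left out, WBP4 and PIGM were 0.40 and 0.52, and WBP4 was not called (limma adjusted p = 0.0888). With the upper-quartile filter NCOA5, TRMT10C and ZNF480 were 0.99, 0.84 and 0.67, and PIGM and WBP4 were 0.12 and -0.10. ZNF480, PIGM and WBP4 were not called with that filter.

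RNA processing genes held few calls. More of these were rises than falls, as over all genes, where 1.04% rose and 0.678% fell. The 3′ end processing list (23 measured) had 2 rises and 0 falls, with a median of 0.22. PCF11, which dismantles the elongation complex at gene ends, had 7.24, 7.02 and 8.71 on control arrays, 9.49, 9.31 and 9.48 with the CPSF3 hairpin and 8.81, 8.79 and 9.18 with the RBFOX2 hairpin. Control replicate 3 was just under the lowest targeted array, and the change was 1.52 ± 0.30 against all controls (adjusted p = 0.0374) and 0.47 against that array. With the upper-quartile filter PCF11 was 0.64. CSTF3, the scaffold of the cleavage stimulation factor, had 8.68 on control replicate 3, inside the targeted range of 8.62 to 9.27, and 7.37 and 6.96 on the others (1.27 ± 0.29; 0.26 against control replicate 3). Without control replicate 3 the list held 8 rises and 1 fall. INTS14 was the only rise among 15 Integrator genes. It had 8.90, 8.64 and 9.53 on control arrays and 9.91 to 10.17 on targeted arrays, with little spread among these (1.0 ± 0.16; 0.49 against control replicate 3). That list held 4 rises without control replicate 3. Of 10 histone pre-mRNA processing genes the cap-binding subunit NCBP1 and the histone transcription coactivator NPAT rose by 0.79 ± 0.18 and 0.76 ± 0.17 (0.49 and 0.37 against control replicate 3). NPAT was 0.64 and not called when probe sets under the median signal were left out. Of 16 measured replication-dependent histones H2BC11 fell by 1.20 on the log2 scale; it was -0.44 against control replicate 3 and -0.74 with the upper-quartile filter.

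Among 54 core spliceosome genes the helicase AQR rose by 1.03 ± 0.19 and SNRPA1, the U2 protein A′, changed by -0.79 ± 0.14 (0.63 and -0.51 against control replicate 3). SNRPA1 was -0.32 and not called with the upper-quartile filter. None of 71 splicing regulators was called, and CLK3, a kinase of SR proteins, came nearest at -0.57 ± 0.13 (adjusted p = 0.0507). Of 15 exosome genes the cytoplasmic nuclease DIS3L rose by 0.62 ± 0.14; it was 0.27 against control replicate 3, and 0.55 and not called when probe sets under the median signal were left out. The small RNA pathway gave no call among 13 genes. DICER1, which trims hairpins to short RNAs, had 9.58, 9.49 and 10.03 on control arrays and 10.03 to 10.61 on targeted arrays, so that the groups nearly met, with 43 of 44 probe sets higher (0.63 ± 0.15, adjusted p = 0.0519). Without control replicate 3 the core spliceosome, splicing regulator, exosome and small RNA lists held 3, 3, 5 and 2 rises, and 2, 7, 0 and 0 falls, where 7.75% of all genes rose and 2.23% fell.

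Cell cycle, protein and metabolic lists held few calls. PTTG1, the securin that guards sister chromatid separation, had 10.95, 10.86 and 9.96 on control arrays and 8.99 to 9.68 on targeted arrays (-1.25 ± 0.22), and UBE2C, the ubiquitin-conjugating enzyme of the anaphase-promoting complex, changed by -1.09 ± 0.15; against control replicate 3 they were at -0.62 and -0.67. PTTG1 was -0.72 with the mean as gene level. They were the 2 falls among 39 G2 and mitosis genes, whose median was 0.10. Of 51 replication genes none was called, with PRIM1 nearest at 0.61 ± 0.15 (adjusted p = 0.0541), and of 40 DNA repair genes the checkpoint clamp loader RAD17 rose by 0.68 ± 0.15. RAD17 was 0.30 and not called (adjusted p = 0.196) when probe sets under the median signal were left out. The replication and repair lists held 7 and 8 rises without control replicate 3. MRPL32 was the only call among 76 mitochondrial ribosomal protein genes, at -1.61 ± 0.22, but it was -0.37 and not called when probe sets under the median signal were left out. The Mediator subunit MED10 changed by -1.04 ± 0.16 (-0.67 against control replicate 3), the initiation factors EIF4A2 and EIF5 by -0.86 ± 0.18 and 0.76 ± 0.16 (-0.32 and 0.65), and HMGCS1, of cholesterol synthesis, by -0.95 ± 0.22 (-0.20 against control replicate 3). The lists of oxidative phosphorylation, proteasome, aminoacyl-tRNA synthetase, chaperone and nuclear pore genes gave no call (72, 35, 17, 24 and 48 measured). The nearest members were NDUFB4 at -0.43, PSMD1 at 0.73, HARS1 at 0.66, STIP1 at 0.36 and NUP88 at 0.70. Without control replicate 3 these lists held 0, 3, 1, 0 and 8 rises, and 4, 1, 0, 0 and 0 falls.

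Matrix, neuronal and interferon lists held a few falls. Against control replicate 3 alone these were at -1.12 to -0.62, and every called fall kept its sign there. Fibronectin FN1 had 10.43, 10.18 and 10.07 on control arrays and 9.19 to 9.76 on targeted arrays (-0.78 ± 0.13), with 76 of 77 probe sets lower; with LOX it made the 2 falls among 42 matrix and adhesion genes, and the collagen receptor subunit ITGA2 rose by 0.68 ± 0.16 (0.23 against control replicate 3). Of 29 neuronal genes 4 fell. NRN1, a GPI-anchored protein of neurite growth, had 11.29, 10.97 and 10.77 on control arrays and 9.24 to 10.12 on targeted arrays (-1.36 ± 0.19). It had 10 of 13 probe sets lower and was -0.49 with the mean as gene level. The neurofilament NEFL changed by -0.68 ± 0.14, and ENO2 is given above. CHGA was at -0.77 ± 0.17 over all probe sets and at -0.01 when probe sets under the median signal were left out. Of 37 interferon response genes the membrane protein IFITM1 fell by 0.73 on the log2 scale and the nucleotidase SAMHD1 rose by 0.79. IFITM1 was -0.17 and not called when probe sets under the median signal were left out, and SAMHD1 was 0.59 and not called with the upper-quartile filter. CRYAB, a small heat shock protein outside these lists, had 8.29 and 8.22 on control replicates 1 and 2, 6.97 on control replicate 3 and 6.07 to 6.81 on targeted arrays.

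The check against each control array alone covered all 319 called genes. Each had the same sign against control replicate 1, 2 and 3. All 6 targeted arrays lay on 1 side of control replicates 1 and 2 at all 319, and on 1 side of control replicate 3 at 280 (164 of 193 rises, 116 of 126 falls). The share of all genes above control replicate 1, 2 or 3 in this way was 24%, 30% and 12.4%, and the share below was 17.5%, 16.4% and 17.4%. Because these arrays also entered the test that called the genes, the signs are a description. The sizes differed more. The 193 rises had a median difference of 0.91 and 1.03 from control replicates 1 and 2 and 0.44 from control replicate 3, and the 126 falls -0.94, -0.79 and -0.54. The difference from control replicate 3 was at least 80% of that from the mean of the other 2 at 41 falls and 19 rises. Beside STC1, DDIT4, JUN, TP53INP1 and DDB2, the falls of that kind include CXCR4, a chemokine receptor (-0.98, -0.78 and -0.90 against control replicates 1, 2 and 3). PLOD2, a collagen lysyl hydroxylase, is another (-0.92, -0.84 and -0.76). Both were chosen after their values were seen. By chance, a share of 0.05 of the 18589 genes tested lies under an unadjusted p of 0.05. With control replicate 3 as the only control, 0 genes were called (924 at an unadjusted limma p under 0.05), and with control replicate 1 or 2 as the only control, 265 and 678.

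**Figure D4:**
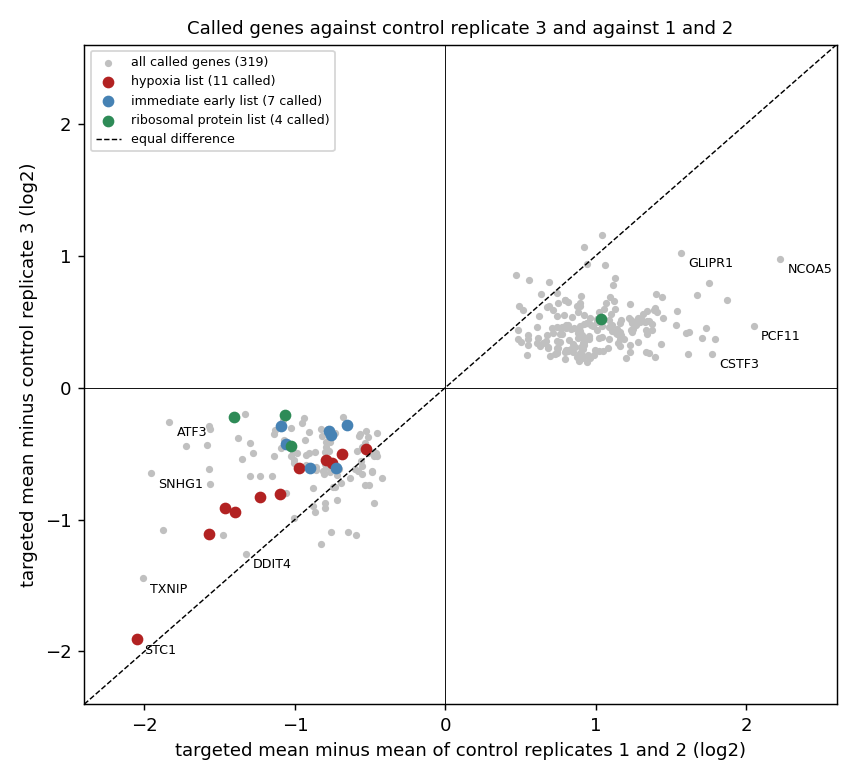
Difference (log2) of the targeted mean from control replicate 3 (vertical) and from the mean of control replicates 1 and 2 (horizontal) for the 319 called genes, with called members of 3 lists coloured; both axes share the targeted arrays. Points on the dashed line differ equally: STC1 lies close to it at -1.91 on the vertical axis, whereas PCF11, CSTF3 and ATF3 lie near the horizontal axis.

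Some genes were kept out of the call by control replicate 3. RGPD4, of a Ran-binding protein family with near-identical copies, had 6.78, 6.64 and 5.0 on control arrays and 4.38 to 5.30 on targeted arrays. The nucleotide hydrolase HINT1 had 10.42, 10.23 and 8.80 against 9.01 to 9.38, and THOC3, of the mRNA export complex, 8.84, 8.35 and 7.10 against 6.02 to 7.92. In the other direction, the R-spondin receptor LGR5 had 8.26, 7.95 and 9.78 against 8.78 to 9.72, the ciliary chaperonin-like gene BBS10 7.65, 7.54 and 9.15 against 8.83 to 9.10, and TRAK2, an adaptor for mitochondrial transport, 7.88, 7.09 and 9.04 against 8.73 to 9.44. ZNF382 and SPINT4 followed the same pattern. In all 8 the level of control replicate 3 was within or beyond the range of the targeted arrays, and they were chosen for its distance from the other controls.

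All 319 called genes had the same direction with both hairpins, which the pooled choice favours. Over all 18589 genes tested, 13782 did. The calls were not shared equally. In the 3-group fit 1710 of 18589 genes (9.2%) passed for the CPSF3 hairpin against control and 7 (0.0377%) for the RBFOX2 hairpin. Of the 193 rises 191 passed for the CPSF3 hairpin and 2 for the RBFOX2 hairpin, and of the 126 falls 124 and 3. The 2 comparisons share the 3 control arrays, so their values are given side by side only. The median change of the 193 rises was 0.92 with the CPSF3 hairpin and 0.68 with the RBFOX2 hairpin, and that of the 126 falls -0.84 and -0.66. The size was larger with the CPSF3 hairpin at 170 rises and 109 falls, and at 11972 of all 18589 genes tested. Tested directly in the 3-group fit, in which the control arrays enter the estimate of spread but not the difference, the hairpins differed at 18 genes of 18589 (0.0968%), and 2 of these were among the 319. DDIT4 changed by -1.73 with the CPSF3 hairpin and -0.88 with the RBFOX2 hairpin, a difference of -0.85 ± 0.12 (limma adjusted p = 0.0235). CHRDL1, a secreted BMP antagonist, had 8.55, 8.25 and 8.38 on control arrays, 6.96, 6.92 and 7.04 with the CPSF3 hairpin and 7.70, 8.02 and 7.75 with the RBFOX2 hairpin (difference -0.85 ± 0.13, adjusted p = 0.0343); its pooled change was -0.66 and not called with the mean as gene level. The count of 18 fell to 0 without CPSF3 hairpin replicate 2 and without CPSF3 hairpin replicate 3 (1765 and 1903 at an unadjusted limma p under 0.05), and to 8, 3, 5 and 2 without control replicate 1, CPSF3 hairpin replicate 1 and RBFOX2 hairpin replicates 1 and 2. B4GALT6, H2BC11 and TULP3, a tubby-like ciliary trafficking protein chosen after its values were seen, were nearly equal with both hairpins: TULP3 had 8.76, 8.66 and 9.01 on control arrays and 9.62 to 10.02 on targeted arrays.

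**Figure D5:**
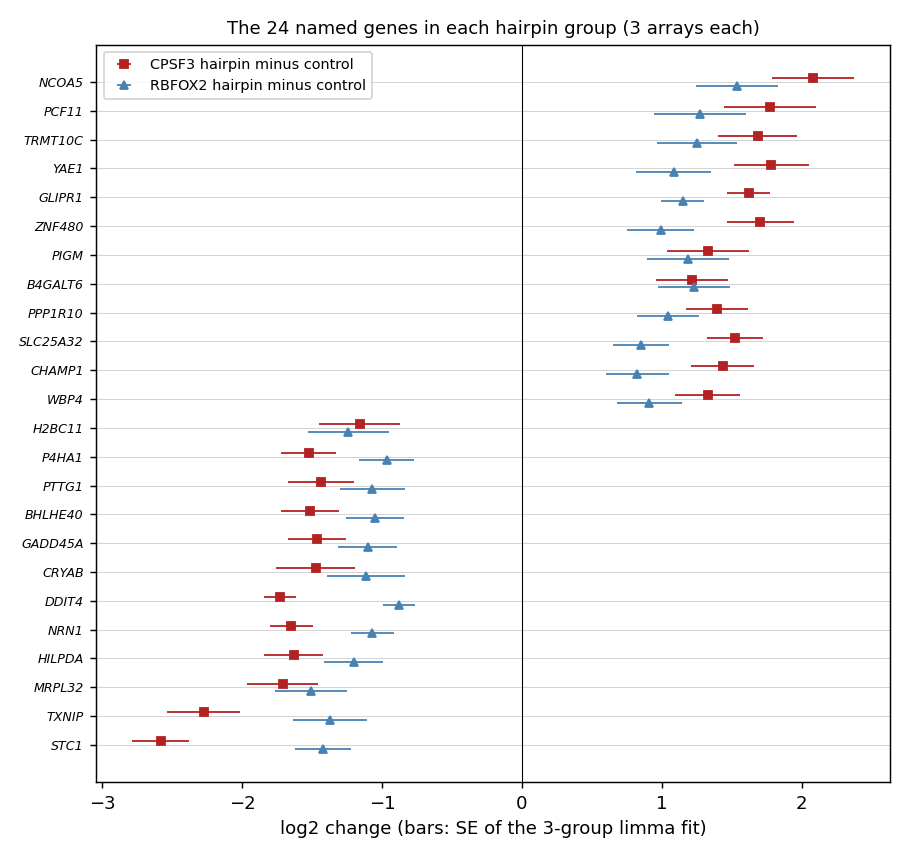
Log2 change against control of the 12 largest falls and 12 largest rises among called genes whose targeted and control arrays do not overlap, in the CPSF3 hairpin (squares) and RBFOX2 hairpin (triangles) arrays, 3 arrays each; bars are SE of the 3-group limma fit and both groups share the control arrays. STC1 is at -2.58 and -1.42, DDIT4 at -1.73 and -0.88, and B4GALT6 at 1.21 and 1.23.

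Exon signal relative to the gene did not give calls in the pooled comparison. Of 263848 exon probe sets in 17340 genes, 0 (0%) passed limma with an adjusted p under 0.05, the smallest being 0.087, and 32411 were under an unadjusted p of 0.05. The count was 4064 without control replicate 3 (1764 higher and 2300 lower), 309 with the mean as gene level and 30 without RBFOX2 hairpin replicate 2.

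Genes that rose had a median of 19 probe sets, genes that fell 13 and all genes 16. The HIF core ACGTG on either strand was present in the 250 bases before the start of 25 of 91 falls with a RefSeq promoter (27.5%), 17.9% of the rises and 21% of the 14419 tested genes with a promoter. The palindrome CACGTG, which contains that core, was in 5.49% of the falls, 3.97% of the rises and 7.91% of tested genes. The cAMP response element TGACGTCA, which contains no ACGTG, was in 7 of the 91 falls (7.69%; PPP1R15A, JUND, FN1, CHGA, SLC25A36, UBE2S and IL32), 3.31% of the rises and 2.36% of tested genes. The AP-1 element TGACTCA was in 4.40% of the falls, 1.32% of the rises and 3.09% of tested genes.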

How the data were processed

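Total RNA was hybridised to 9 exon arrays. As deposited, each value is a probe set's log2 signal, which the authors normalised with RMA in Affymetrix Power Tools against hg18, per the submitters' processing notes; the Exon Array Computational Tool stands in the series text. Tool versions: not given in the sources used here. Normalisation brings the arrays to nearly the same distribution of signal, so most of a shift shared by all transcripts is removed, and weak signals have compressed changes.

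Of 1384231 probe sets, 354600 had exactly 1 gene symbol, 14898 several and 1014733 none. Of 19497 symbols, 16426 were current in RefSeq, 2950 were updated through a synonym and 121 kept as given. The level of a gene was the median of its probe sets (3 or more), without a filter on low values (18589 genes); relative exon signal was probe set minus gene level, for genes of at least 5 probe sets and probe sets at or above the median signal of 6.97. Tests were 2-sided, in limma 3.58.1 (R 4.3.3; Python 3.11.15 with pandas 2.3.3 for tables), with Benjamini-Hochberg adjustment over all features. The 3-group fit gave each hairpin group and their difference. Errors of changes are SE. No array was left out, and the number of arrays limits the precision. The fits were tested on simulated data with 200 changed features.

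Named genes are the targets, the 12 largest rises and falls among called genes whose groups do not overlap, up to 3 called members each way per list (or the member with the smallest p), called hairpin differences and 8 genes set by control replicate 3. Further list members that were called are named too, and others are given to complete a pathway. The comparison, members and lists were chosen with earlier results of these data known. Alternatives were signal filters, the mean as gene level, renewed quantile normalisation, centring, 3 groups, a replicate block, a variance trend with robust fitting, array weights, each array left out and each control alone. Calls per list under these, and the overlap of called genes, were added after the data were examined. Promoters are RefSeq's for GRCh38.p14, matched by symbol for 14419 of the genes tested.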

Additional observations from a re-analysis of the deposited data

Results flagged for a closer look

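Among called genes, DDIT4 and CHRDL1 differed between the hairpin groups in the direct test: the CPSF3 hairpin minus the RBFOX2 hairpin was -0.848 for DDIT4 (limma adjusted p = 0.0235) and -0.85 for CHRDL1 (adjusted p = 0.0343), with all 3 CPSF3 hairpin arrays below all 3 RBFOX2 hairpin arrays in both.

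Of the named genes, FOS and THOC3 had 1 targeted array far from the other 5 by Dixon's criterion, which by chance marks about 5% of groups. FOS was highest on CPSF3 hairpin replicate 1, at 8.161, with the next array at 7.859. THOC3, which was not called, was lowest on RBFOX2 hairpin replicate 1, at 6.025, with the next at 7.22.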

How the results depend on the processing

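Of the 60 called genes named by the rule, quantile normalisation again, centring, 3 groups, robust fitting and array weights each kept all 60 calls, and leaving out control replicate 1 or 2 or CPSF3 hairpin replicate 3 kept 0. WBP4 turned to -0.0976 with the upper-quartile filter. The pooled count of 319 (193 higher, 126 lower) was 762 (492, 270) with probe sets at or above the median signal, 724 (471, 253) with the upper quartile, 835 (568, 267) with the mean as gene level, 499 (272, 227) with arrays centred, 927 (618, 309) with 3 groups, 519 (335, 184) with a variance trend and robust fitting, 2752 (1815, 937) with array weights, 678 (590, 88) with control replicate 2 alone and 0 (0, 0; 924 at an unadjusted limma p under 0.05) with control replicate 3 alone. The share of calls that were higher moved from 60.5% to 87.0% with control replicate 2 alone, and was 77.7%, 73.3%, 33.3% and 20% without control replicate 3, RBFOX2 hairpin replicate 1, CPSF3 hairpin replicate 1 and RBFOX2 hairpin replicate 3. By chance, a share of 0.05 of tested genes lies under an unadjusted p of 0.05. Leaving out 1 array gave 0 to 1854 calls (0 to 1440 higher, 0 to 414 lower). Exon calls, 0 in the main setting, were 309 with the mean as gene level, 32 with array weights, 43 and 12 with control replicate 1 or 2 alone, and 0 to 4064 with 1 array left out. The 18 genes that differed between hairpins were 67 with the median filter, 91 with the mean, 33 with robust fitting, 134 with array weights and 0 to 24 with 1 array left out. Same-numbered arrays did not pair (correlation of deviations -0.132 to 0.251 over 9 pairs, 3 of them over 0.1); with a replicate block the pooled count was 326 (217, 109), the exon count 0 (33930 at an unadjusted limma p under 0.05) and the count between hairpins 4. The cause of these shifts was not tested. MRPL32, CHGA, IFITM1 and PIGM had smaller changes when low probe sets were left out. Compressed weak signals limit what small changes can show.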

Other observations

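Zinc finger genes were common among the rises, a group chosen after the values were seen. Of 510 tested genes with a ZNF symbol 18 rose and 3 fell, which is 9.33% of the 193 rises, while ZNF symbols make up 2.74% of all genes tested. The rises ran from ZNF766 (0.53 ± 0.11, SE) to ZNF480 (1.35 ± 0.26) and included ZNF594 (1.32 ± 0.30), ZNF585B (1.21 ± 0.25) and ZNF708 (1.02 ± 0.22). The median of the 510 was 0.18, 0.26 and 0.02 against control replicates 1, 2 and 3. These genes form tandem clusters of related sequence, so probe sets can bind several family members.

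Some other transcripts fell, also chosen after the values were seen. The nuclear RNA MALAT1 had 12.36, 12.52 and 11.91 on control arrays and 10.94 to 11.88 on targeted arrays (-0.84 ± 0.19). The ferritin light chain FTL had 11.40, 11.48 and 10.77 against 10.25 to 10.59 (-0.85 ± 0.15), and B2M, the light chain of MHC class I, 8.88, 9.20 and 7.79 against 7.14 to 7.89 (-1.15 ± 0.25). The groups did not overlap for MALAT1 and FTL, and control replicate 3 lay inside the targeted range for B2M. Against control replicate 3 alone, MALAT1, FTL and B2M were at -0.49, -0.40 and -0.32. The kinase CDK13 rose by 0.93 ± 0.19, and by 0.49 against control replicate 3 alone.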
